A study of Mus musculus with 12 samples.

Results

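The collagen chains that build the Descemet membrane were followed in corneal endothelial cells (CEC) of *Slc4a11* knockout (KO) and wild-type (WT) mice. All rows with the symbols *Col4a1*, *Col4a2*, *Col4a3*, *Col4a4*, *Col4a5*, *Col4a6*, *Col8a1* or *Col8a2* were taken, which gave 8 of the 15838 genes measured, 6 chains of collagen IV and 2 chains of collagen VIII. KO mice were C57BL/6 animals homozygous for a germline deletion of exons 9 to 13 of *Slc4a11*, a membrane transporter of CEC, and WT mice were their *Slc4a11*+/+ littermates from heterozygous parents. RNA of Descemet membrane with its CEC, stripped from the back of the cornea at 10 weeks of age, was sequenced in 12 libraries, with 3 each for male WT, male KO, female WT and female KO mice. The sample records describe pooled membranes, whereas the methods of the study describe pairs from both corneas of a mouse, so the p-values measure the spread between these libraries, which may not be the spread between mice.

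The Descemet membrane is the thick basement membrane that CEC lay down between themselves and the stroma. Collagen IV chains join in threes into trimers and then into a sheet-like network. The ubiquitous network is made of α1 and α2 chains, and the network of specialised basement membranes is made of α3, α4 and α5 chains, with a further network holding α5 and α6. Collagen VIII, made of α1 and α2 chains, forms the hexagonal lattice for which the Descemet membrane is known, and variants of the α2 chain cause an early-onset corneal endothelial dystrophy in people.

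The 6 collagen IV genes lie in the genome as 3 head-to-head pairs, in which the start sites of 2 genes face away from each other. *Col4a1* (chromosome 8, 11198423 to 11312826, minus strand) and *Col4a2* (chromosome 8, 11312805 to 11449287, plus strand) overlapped by 22 bases at their first exons in GRCm38. *Col4a4* (chromosome 1, 82448423 to 82586849, minus strand) and *Col4a3* (chromosome 1, 82586921 to 82722059, plus strand) were separated by 71 bases. *Col4a6* (chromosome X, 141165403 to 141474076, minus strand) and *Col4a5* (chromosome X, 141475385 to 141689234, plus strand) were separated by 1308 bases. *Col8a1* (chromosome 16, 57624258 to 57754737, minus strand) and *Col8a2* (chromosome 4, 126286793 to 126314330, plus strand) stand alone.

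The bases around 2 of these shared starts are shown because *Col4a3*, the gene with a called KO effect, starts at one of them, and the pair of the ubiquitous network starts at the other. Each is the plus strand of RefSeq sequence for GRCm38.p6, read 5′ to 3′ and with 30 bases past each start site. Capitals mark the 71 bases between the starts of *Col4a4*, to the left, and *Col4a3*, to the right, at chr1:82586820-82586950, and the 22 bases that the first exons of *Col4a1* and *Col4a2* share at chr8:11312797-11312834.
Col4a4 and Col4a3: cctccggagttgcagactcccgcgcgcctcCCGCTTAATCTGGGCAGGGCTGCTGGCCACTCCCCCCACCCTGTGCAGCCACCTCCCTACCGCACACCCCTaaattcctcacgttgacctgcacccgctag
Col4a1 and Col4a2: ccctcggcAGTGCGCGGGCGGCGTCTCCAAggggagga

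The first stretch held 66.4% G or C and the second 76.3%. Simple motifs were searched on both strands. A promoter window of 300 bases, with 250 before and 50 after the start, was matched for 7 of the 8 genes, all but *Col4a3*. The GC box, spelled GGGCGG, had 1 match in the second stretch printed above and none in the first, and was found in 6 of the 7 windows against 35.7% of all 32851 mouse windows. The 7 windows held from 48.3% (*Col4a6*) to 74% (*Col4a1*) G or C, against a median of 52.7% over all mouse windows. Windows of equal G or C content were not compared. The pentamer bound by the trimeric factor NF-Y, spelled CCAAT, was in neither stretch and in 3 of the 7 windows, against 37.4% of mouse windows. An E box of the kind that repressors of the zinc finger homeobox family bind, spelled CAGGTG, was in neither stretch and in 2 of the 7 windows, against 20.2% of mouse windows. The TATA box, a core promoter element spelled TATAAA, was in neither stretch and in 0 of the 7 windows, against 13.6% of mouse windows. The windows of *Col4a1* and *Col4a2* overlap and are not independent.

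The label of the tissue was checked first, on the estimated level of each group in CPM, counts scaled to library size, which is derived from the mean level and the coefficients and carries no error. *Slc4a11* was estimated at 3076 CPM (WT) and 865 CPM (KO) in males and at 4681 CPM (WT) and 633 CPM (KO) in females, with a log2FC of -1.83 ± 0.22 (SE) in males and -2.89 ± 0.22 in females, both called by limma (adjusted p = 0.000522 and 2.77e-05). Of 10 listed CEC markers 9 were measured, among them the carbonic anhydrase gene *Car3* at a mean of 6486 CPM and the water channel gene *Aqp1* at 5279 CPM, and the sum of the 8 other than the deleted gene was 16089, 17889, 16063 and 18697 CPM across the groups male WT, male KO, female WT and female KO, the order kept for every 4 values below. With *Slc4a11* the sum was 19164, 18755, 20744 and 19331 CPM. In males 7 of these 8 markers had a log2FC above 0 (median 0.17) and in females 6 of 8 (median 0.16), with 0 of 8 called and 2 of 8 at an unadjusted p under 0.05 by limma in each sex. Over all genes 5.47% were called in males and 1.42% in females, and 21.9% and 15.9% had such an unadjusted p. Stroma markers were also high, with a sum of 16973, 12180, 17317 and 9384 CPM, whereas the 7 genes listed for the endothelium of blood vessels summed to 114, 91.3, 113 and 57.3 CPM, most of it *Kdr* with a mean of 82.1 CPM, and 3 of the 7 had means under 1 CPM. The tables hold no value per library, so the values by group below are such estimates.

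The 8 collagen genes were among the most abundant transcripts of the tissue. Together they were estimated at 28767, 32661, 29476 and 29719 CPM, which is 2.88%, 3.27%, 2.95% and 2.97% of the full CPM scale. The estimates are means on the log2 scale, so these percentages only approximate shares of the counts. Collagen IV made up 19561, 22292, 20334 and 19954 CPM of these sums, and collagen VIII made up 9206, 10369, 9141 and 9765 CPM. Ranked by mean CPM among all genes, *Col8a2* was 8th, *Col4a3* 11th, *Col4a4* 13th, *Col4a1* 14th, *Col4a2* 25th, *Col8a1* 32nd, *Col4a5* 84th and *Col4a6* 114th.

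Levels of different genes were compared per kilobase (kb) of exon. *Col8a2*, the α2 chain of collagen VIII, was highest with 1582 CPM per kb and ranked 14th of all genes on this scale. *Col4a1* followed with 646 and *Col4a3* with 596 CPM per kb, a difference of 0.12 on the log2 scale, which was within the SD between libraries that the standard errors imply (0.13). *Col4a4* with 467 and *Col4a2* with 441 CPM per kb also did not differ beyond that SD. It is the spread of single libraries, not the error of a mean over 12 libraries, and no test between genes was run. *Col8a1* stood at 318, *Col4a5* at 155 and *Col4a6* at 101 CPM per kb, and each of these was lower than the gene before it by more than that SD. Per transcript length, the α3 and α4 chains therefore stood near the α1 and α2 chains, while the α5 chain, the partner of α3 and α4 in their trimer, was lower. With the length of the longest transcript in place of all exons, *Col8a1* moved in the order to 488 CPM per kb, above *Col4a2* at 452 and near *Col4a4* at 491.

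The question of which chains differed between KO and WT was addressed with the moderated t of limma, adjusted by Benjamini-Hochberg over all genes of the table and called at an adjusted p under 0.05. In males 1 of the 8 genes was called, against 5.47% of all genes (866), and in females 0 of 8, against 1.42% (225). The called gene was *Col4a3*, higher in male KO mice. At an unadjusted p under 0.05 the counts by limma were 1 of 8 in males and 0 of 8 in females, against 21.9% and 15.9% of all genes. The median absolute log2FC of the 8 genes was 0.13 in males and 0.10 in females, against 0.24 and 0.21 over all genes, and their median standard error in males was 0.10 against 0.18.

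**Figure D1:**
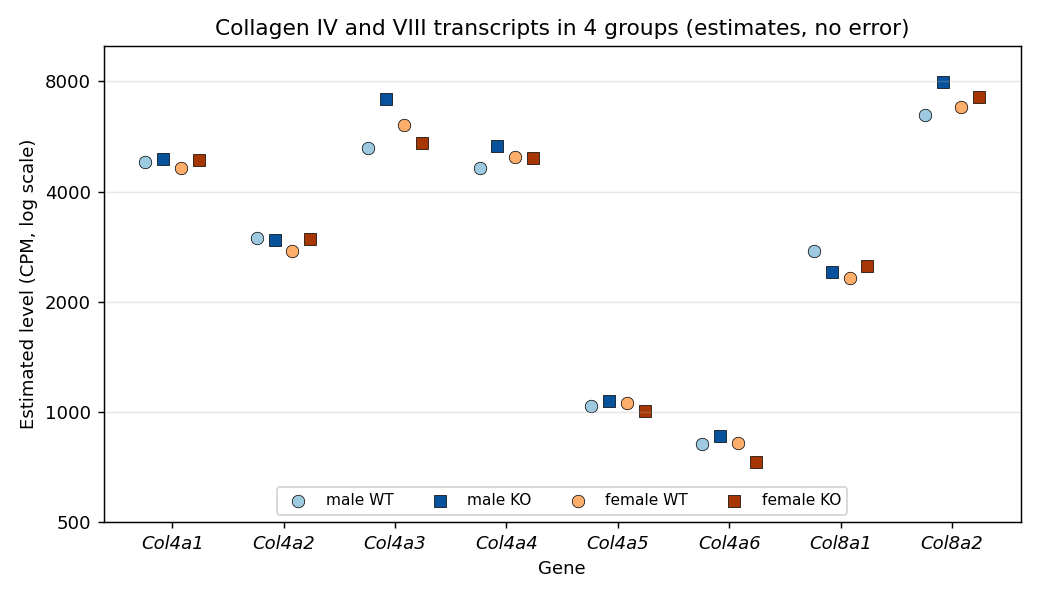
Estimated level of each collagen gene (horizontal axis) in CPM on a log scale (vertical axis) in male WT, male KO, female WT and female KO mice; points are estimates from the coefficients and have no error bar. *Col4a3* runs from 5264 CPM in male WT to 7159 in male KO mice, while the points of *Col4a1*, *Col4a2* and *Col4a5* lie close together.

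The α3 chain gene *Col4a3*, which is mutated in Alport syndrome and serves the tougher network of kidney, lung and eye basement membranes, was estimated at 5264, 7159, 6078 and 5425 CPM. Male KO mice were the highest group and male WT mice the lowest, with both groups of females between them. In males its level rose 1.36-fold in KO mice (log2FC 0.44 ± 0.11 SE, 95% CI 0.21 to 0.68, 3 libraries against 3, limma adjusted p = 0.0334). In females the log2FC was -0.16 ± 0.11 (95% CI -0.40 to 0.07, adjusted p = 0.482). The female effect minus the male effect was -0.61 ± 0.16 (95% CI -0.94 to -0.27), with an adjusted p = 0.112 in limma, so a difference between the sexes was not called. The call in males was lost with the Benjamini-Yekutieli adjustment (adjusted p = 0.342) with the residual degrees of freedom alone (adjusted p = 0.0992) and with an added threshold of 1 on the absolute log2FC. Between the same male groups, WT and then KO, the summed stroma markers stood at 16973 and 12180 CPM. The 8 CEC markers other than *Slc4a11* stood at 16089 and 17889 CPM. The summed markers of leukocytes and of trabecular meshwork stood at 58.0 and 32.8 and at 537 and 102 CPM. Those of corneal epithelium stood at 1557 and 1005 CPM, most of it *Aldh3a1* (1374 and 913 CPM). Those of pericytes and smooth muscle stood at 481 and 349 CPM. The part of all these markers in the result was not tested. In bulk tissue, fewer cells of a type and less RNA per cell cannot be told apart.

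*Col4a4*, the α4 chain that assembles with α3 and is read from the other side of the same 71 bases, was estimated at 4639, 5326, 4964 and 4933 CPM. The male KO group was again the highest, and the other 3 groups lay between 4639 and 4964 CPM. Its log2FC was 0.20 ± 0.10 in males (95% CI -0.01 to 0.41, adjusted p = 0.248) and -0.01 ± 0.10 in females (adjusted p = 0.972). *Col4a5*, the third chain of that trimer, was estimated at 1041, 1069, 1060 and 1004 CPM, with a log2FC of 0.04 ± 0.08 in males and -0.08 ± 0.08 in females. *Col4a6*, the α6 chain, was estimated at 818, 859, 821 and 729 CPM, lowest in female KO mice, with a log2FC of 0.07 ± 0.09 in males and -0.17 ± 0.09 in females (adjusted p = 0.345). The latter pair are X-linked, and no call was made for either in any comparison.

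The ubiquitous chains had estimates near 0 in both sexes. *Col4a1* was estimated at 4817, 4920, 4650 and 4894 CPM, with a log2FC of 0.03 ± 0.10 in males (95% CI -0.18 to 0.24) and 0.07 ± 0.10 in females (95% CI -0.14 to 0.29). *Col4a2* was estimated at 2981, 2960, 2760 and 2969 CPM, with a log2FC of -0.01 ± 0.10 in males and 0.11 ± 0.10 in females. The intervals leave room for a difference of up to 0.32 on the log2 scale, the upper bound for *Col4a2* in females. For the pairs that overlap or face each other at the start, the library kit kept the strand, but whether strand was used in counting is not given in the sources used here.

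The chains of collagen VIII had estimates of opposite sign in males. *Col8a2* was estimated at 6457, 7950, 6825 and 7253 CPM, so both KO groups were above both WT groups, with a log2FC of 0.30 ± 0.14 in males (95% CI -0.0043 to 0.60, adjusted p = 0.234) and 0.09 ± 0.14 in females. *Col8a1* was estimated at 2750, 2419, 2317 and 2512 CPM, highest in male WT mice, with a log2FC of -0.19 ± 0.13 in males (adjusted p = 0.414) and 0.12 ± 0.13 in females. None of these 4 effects was called.

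**Figure D2:**
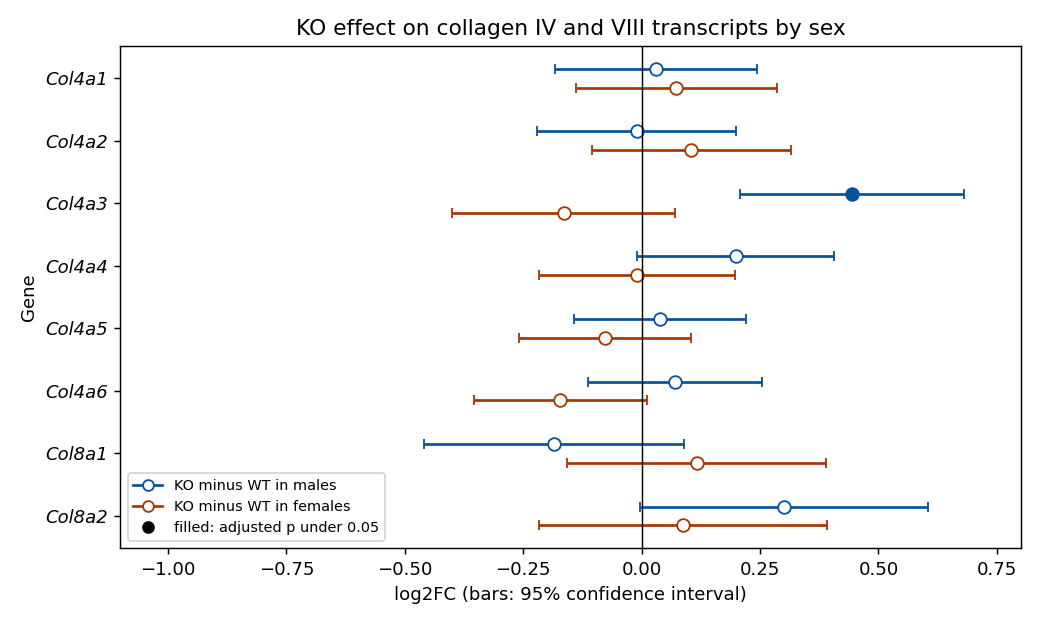
KO minus WT as log2FC (horizontal axis) for each collagen gene (vertical axis) in males (blue) and females (brown); points are the coefficients, bars their 95% confidence intervals, and a filled point has a limma adjusted p under 0.05. The interval of *Col4a3* in males (0.21 to 0.68) is the only one that leaves out 0.

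The effect of KO averaged over both sexes was called for 0 of the 8 genes, against 9.07% of all genes (1437), with 0 of 8 at an unadjusted p under 0.05 in limma against 27.9% of all genes. *Col8a2* had the highest mean effect (log2FC 0.19 ± 0.10, adjusted p = 0.221), followed by *Col4a3* (0.14 ± 0.08, adjusted p = 0.253) and *Col4a4* (0.09 ± 0.07). The lowest was that of *Col4a6* with -0.05 ± 0.06. The 95% confidence intervals of the 8 mean effects lay between -0.23 and 0.41, so a mean change of 2-fold was outside all of them. The median absolute mean effect was 0.05 in the 8 genes and 0.20 in all genes.

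The interaction, the female effect minus the male effect, was called for 0 of the 8 genes, against 0.543% of all genes (86), and 1 of 8, *Col4a3*, had an unadjusted p under 0.05 in limma, against 10.2% of all genes. It was below 0 for 5 of the 8 genes, with -0.24 ± 0.12 for *Col4a6*, -0.21 ± 0.14 for *Col4a4*, -0.21 ± 0.20 for *Col8a2* and -0.12 ± 0.12 for *Col4a5* beside that of *Col4a3*. It was above 0 for *Col8a1* (0.30 ± 0.18), *Col4a2* (0.12 ± 0.14) and *Col4a1* (0.04 ± 0.14). The median absolute interaction was 0.21 in the 8 genes and 0.23 in all genes. Between the sexes, in a fit that apparently held no genotype term, 0 of the 8 genes were called and 0 of 8 had an unadjusted p under 0.05 in limma, against 0.0316% (5) and 3.74% of all genes. The female minus male log2FC was below 0 for all 8 genes, from -0.12 for *Col4a6* to -0.01 for *Col4a4*. Over all 15838 genes it was above 0 for 7769. The 8 genes were measured in the same libraries, so their signs are not independent.

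**Figure D3:**
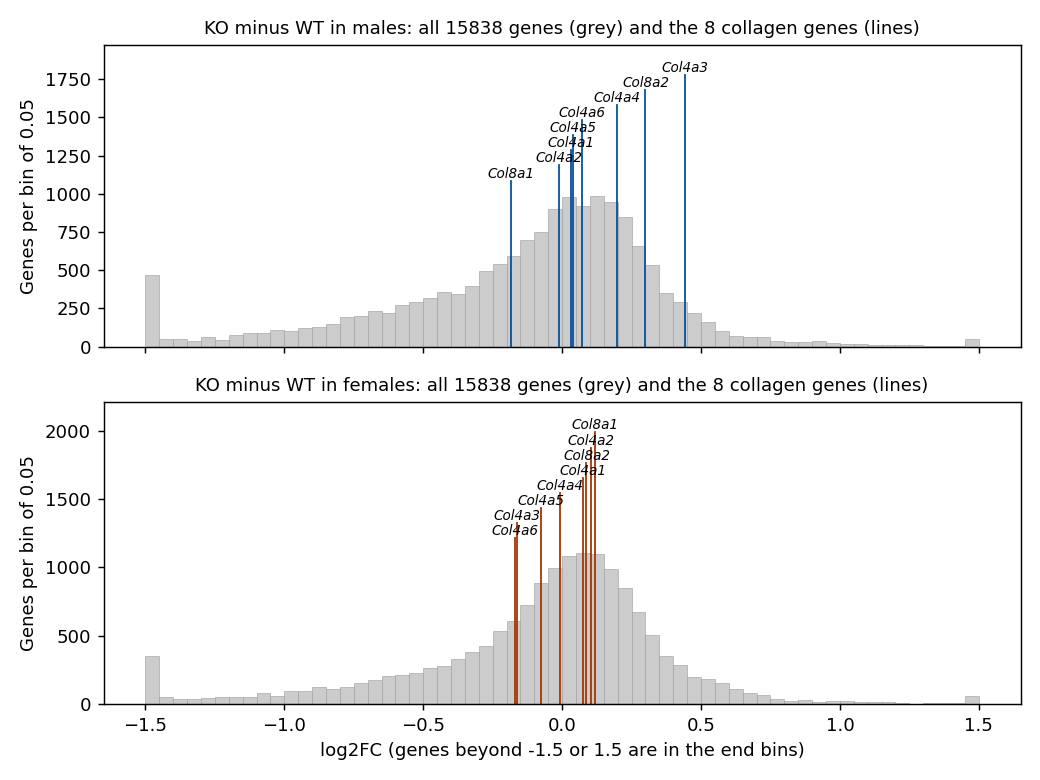
Number of genes (vertical axis) by KO minus WT log2FC (horizontal axis, bins of 0.05, end bins holding all values beyond them) in males, upper panel, and females, lower panel, with the 8 collagen genes as lines of staggered height. In males the lines run from -0.19 for *Col8a1* to 0.44 for *Col4a3*, above which lie 6.32% of all genes, and in females from -0.17 for *Col4a6* to 0.12 for *Col8a1*.

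The genes whose 4 group levels ran most like those of *Col4a3*, the collagen gene with the largest deviation of its groups from their mean (root mean square 0.17 on the log2 scale), were *Nupl2*, *Camkk1* and *Slc14a1*, out of 14407 genes of at least 1 CPM. Their root mean square differences from the centred *Col4a3* levels were 0.0061, 0.019 and 0.021 over 4 groups. They were picked for this closeness, so their effects in each sex had to resemble those of *Col4a3*. *Slc14a1*, a urea transporter gene with a mean of 1430 CPM, had a log2FC of 0.47 in males and -0.16 in females, and *Nupl2*, a nucleoporin gene with a mean of 9.56 CPM, had 0.44 and -0.15. None of the 3 genes was called in males (adjusted p = 0.114 for *Nupl2*, 0.543 for *Camkk1* and 0.0823 for *Slc14a1* in limma).

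Genes that modify collagen chains in the endoplasmic reticulum moved in both directions. Of 15 such genes, 1 was higher and 3 were lower in male KO mice, 1 was lower in female KO mice, and 2 were higher and 6 lower in the mean of both sexes, with a median mean effect of -0.08 against -0.01 over all genes. Over all genes 5.47% were called in males, 1.42% in females and 9.07% in that mean. At an unadjusted p under 0.05 in limma the shares were 21.9%, 15.9% and 27.9%. These shares also belong beside the counts of the lists below. *Colgalt2*, a galactosyltransferase of hydroxylysine, fell in both sexes (log2FC -1.05 ± 0.19 and -1.33 ± 0.20, adjusted p = 0.00795 and 0.00396 in limma), with levels of 89.7, 43.5, 89.5 and 35.6 CPM. The prolyl hydroxylase genes *P3h2* and *P4ha3* fell in males (-1.04 ± 0.19 and -0.92 ± 0.24), with -0.79 ± 0.20 and -0.84 ± 0.24 in females. *P3h1*, which hydroxylates prolines at the 3 position, rose in males (0.44 ± 0.10), with 0.26 ± 0.10 in females. It was also called in the mean of both sexes (0.35 ± 0.07, adjusted p = 0.0133 in limma). *P4hb*, the β subunit of prolyl 4-hydroxylase and the most abundant of the list, rose in the mean of both sexes (0.26 ± 0.07, adjusted p = 0.0345).

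Of 9 genes of collagen folding and export, 2 were higher and 0 lower in male KO mice, and 0 were called in females, where 1 of 9 had an unadjusted p under 0.05 in limma. The higher genes were the coat proteins of the vesicles that carry collagen out of the endoplasmic reticulum, *Sec24d* (log2FC 0.58 ± 0.12, adjusted p = 0.0188) and *Sec23a* (0.45 ± 0.12, adjusted p = 0.0485), with -0.01 ± 0.13 and 0.09 ± 0.12 in females. Their interactions of -0.58 and -0.36 were not called (adjusted p = 0.194 and 0.514). The collagen chaperone gene *Serpinh1* had -0.01 ± 0.10 in males, and *Sparc*, which binds collagen IV and had a mean of 2726 CPM, had 0.05 ± 0.11. All 9 interactions of the list were below 0, with a median of -0.22 against 0.02 over all genes. None of them was called, and 2 had an unadjusted p under 0.05 in limma, against 10.2% of all genes.

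Of 12 genes that cross-link or join the network, 1 was higher and 3 were lower in male KO mice, 1 was lower in female KO mice, and 1 was higher and 4 lower in the mean of both sexes, with a median mean effect of -0.29. *Nid1*, nidogen, which ties the laminin and collagen IV networks together, fell in males and in females (log2FC -0.90 ± 0.15 in males and -0.89 ± 0.15 in females, adjusted p = 0.00458 and 0.00938), with levels of 224, 120, 216 and 117 CPM. *Loxl2*, a lysyl oxidase that cross-links collagen IV, rose in males (0.70 ± 0.16), with 0.41 ± 0.16 in females. It was called in the mean of both sexes (0.56 ± 0.11, adjusted p = 0.0102 in limma). The fibronectin gene *Fn1* and *Loxl3* each fell by 0.37 on the log2 scale in males (adjusted p = 0.0482 and 0.0479). These male calls were lost on recentring on the median of all genes (adjusted p = 0.0601 and 0.0596). In females their log2FC was -0.39 ± 0.10 and -0.33 ± 0.10. Both were called lower in the mean of both sexes (adjusted p = 0.00669 and 0.0114 in limma), also after recentring (adjusted p = 0.00828 and 0.0137). *Hspg2*, perlecan, had -0.14 ± 0.11 in males and -0.33 ± 0.11 in females. *Pxdn*, also of this list, had -1.18 ± 0.49 in males and -1.36 ± 0.57 in females, neither called. It was called lower in the mean of both sexes (-1.27 ± 0.37, adjusted p = 0.0497 in limma).

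Of 7 collagen receptor genes, 1 was lower in male KO mice and 2 were lower in the mean of both sexes. In females 0 were called and 3 of 7 had an unadjusted p under 0.05 in limma, against 15.9% of all genes. *Ddr2*, a receptor tyrosine kinase for fibrillar collagen, fell in males (log2FC -0.36 ± 0.08), with -0.19 ± 0.08 in females. In the mean of both sexes *Ddr2* (-0.28 ± 0.06, adjusted p = 0.0142 in limma) and the integrin gene *Itga11* (-1.11 ± 0.26) fell. *Itgb1*, the shared β1 subunit, had -0.23 ± 0.12 in males and 0.04 ± 0.12 in females. Of 11 genes listed for collagen IV turnover 10 were measured. Of these *Timp2*, an inhibitor of matrix metalloproteinases, fell in males (-0.58 ± 0.10), with -0.27 ± 0.10 in females. It was also called lower in the mean of both sexes (-0.42 ± 0.07, adjusted p = 0.00289 in limma). *Timp3*, the most abundant with a mean of 2210 CPM, was not called in any comparison.

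For a pair of genes of the turnover list the interaction was called, with the effect past the threshold in females and not in males. The secreted protease gene *Adamts1* was estimated at 1108, 769, 590 and 1424 CPM, with a log2FC of -0.53 ± 0.18 in males (adjusted p = 0.103) and a rise of 1.27 ± 0.18 in females (adjusted p = 0.00274). *Plat*, tissue plasminogen activator, was estimated at 17.5, 24.0, 34.5 and 14.6 CPM, with 0.46 ± 0.16 in males (adjusted p = 0.113) and -1.24 ± 0.17 in females (adjusted p = 0.00252). Of 16 transcription factor and TGF-β genes 15 were measured, and *Smad7*, an inhibitor of TGF-β signalling, fell in both sexes (-0.46 ± 0.10 and -0.45 ± 0.10). *Smad3*, which carries the signal of that pathway, rose in males (0.42 ± 0.11, with -0.03 ± 0.11 in females, interaction adjusted p = 0.259), and *Zeb1*, a repressor of transcription in CEC, fell in the mean of both sexes (-0.29 ± 0.06).

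Most calls in these 6 lists rested on the settings of the test. Of the 68 genes measured, 14 were called in males, against 1 (*Nid1*) with the Benjamini-Yekutieli adjustment, 2 (*Nid1* and *Timp2*) with the residual degrees of freedom alone and 2 (*P3h2* and *Colgalt2*) with the threshold of 1 on the absolute log2FC, so that *Sec24d* and *Sec23a*, like *Loxl2* and *Smad3*, were called under none of these 3. In females 5 were called, against 3, 2 and 3, with *Adamts1* and *Plat* among them each time, and in the mean of both sexes 19 were called, against 5, 7 and 3. Over all genes 5.47% were called in males, 1.42% in females and 9.07% in that mean before these settings were changed. The counts over all genes also fell under each of these settings, as given in the last section, so the loss was not particular to these lists.

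**Figure D4:**
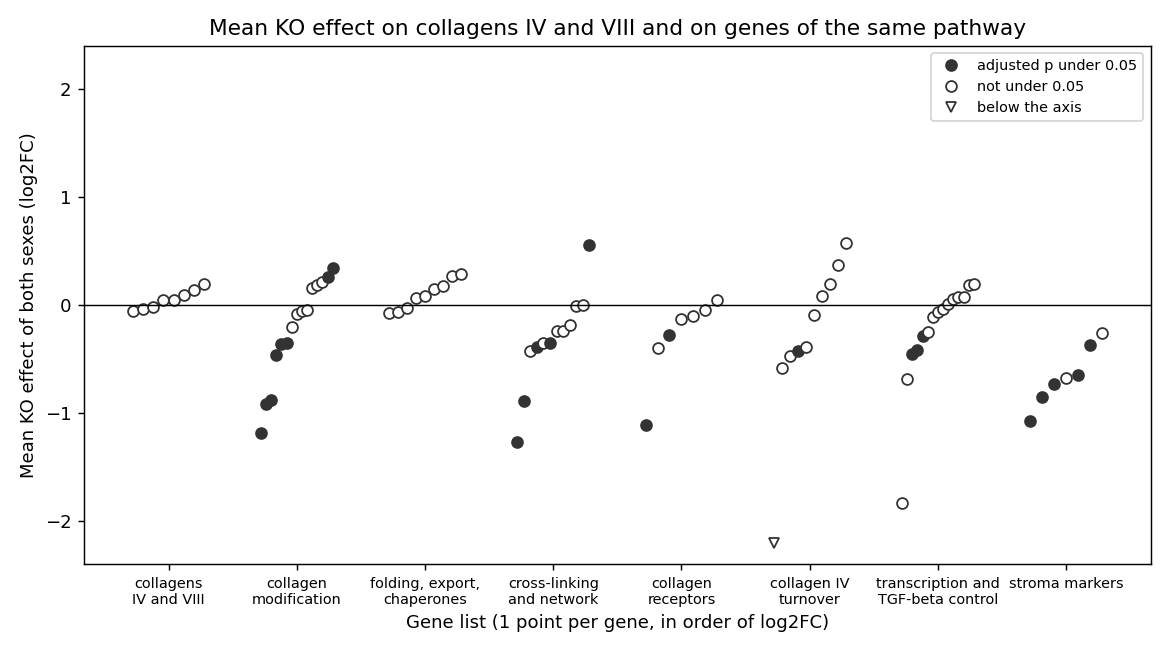
Mean KO effect of both sexes as log2FC (vertical axis), 1 point per gene, for the 8 collagen genes, the lists of genes of the same pathway and the stroma markers (horizontal axis); filled points have a limma adjusted p under 0.05 and a triangle marks a value below the axis. The 8 collagen genes lie between -0.05 and 0.19 with no filled point, and 5 of the 7 stroma markers are filled and below 0.

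The fibrillar collagens of the stroma served as a contrast to the chains of the Descemet membrane. Of 7 stroma markers 0 were called in males or in females alone. At an unadjusted p under 0.05 in limma the counts were 4 and 6 of 7, against 21.9% and 15.9% of all genes. In the mean of both sexes 5 of the 7 were called lower, with a median log2FC of -0.67, against 9.07% of all genes called. *Col1a1* fell by 1.08 and *Col1a2* by 0.65 on the log2 scale in that mean (adjusted p = 0.0330 and 0.0188), whereas *Col3a1* had -0.26 ± 0.09 (adjusted p = 0.0688). Whether the chains of the Descemet membrane and those of the stroma differed in effect was not tested. The lists of other cells held mostly genes below 0 in the mean of both sexes. Those called lower were 1 of 8 genes of corneal epithelium, 3 of 7 of vascular endothelium, 1 of 5 of pericytes and smooth muscle, 2 of 5 of iris pigment cells, 3 of 4 of trabecular meshwork, 1 of 5 of leukocytes and 0 each of 3 of nerve and 4 of lens (1 and 0 at an unadjusted p under 0.05 in limma), and of the 9 measured CEC markers only *Slc4a11* was called. Leukocyte markers were not alike in the sexes, with 0 of 5 above 0 in males and 4 of 5 in females. All 5 of their interactions were above 0, none called and 2 with an unadjusted p under 0.05 in limma, against 10.2% of all genes. The sum of these markers was 58.0, 32.8, 40.1 and 67.3 CPM. *Lyz2*, a lysozyme of myeloid cells, had -0.78 ± 0.45 and 1.66 ± 0.39, and *Chil1*, of the trabecular meshwork list, -4.36 ± 1.58 and 3.05 ± 0.97 (interaction adjusted p = 0.0980 and 0.106). The trabecular meshwork markers summed to 537, 102, 291 and 508 CPM, so both sums were lower in KO than in WT males and higher in KO than in WT females, as were the levels of *Adamts1*, while *Plat* and *Col4a3* ran the other way. The higher trabecular meshwork sum of KO females came from *Chil1* alone (42.8 CPM in WT and 355 CPM in KO females). In females it was the only 1 of the 4 markers above 0, and *Myoc*, *Mgp* and *Cdh11* were below 0. The part of the stroma markers and of these lists in the values of the collagens and of all pathway genes above, *Adamts1* and *Plat* included, was not tested.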

How the data were processed

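The authors sequenced stranded total RNA, aligned the reads to GRCm38 with Hisat2, normalised counts to CPM by TMM and fitted limma with voom weights to 2 genotypes by 2 sexes. They deposited 3 tables of these comparisons (genotype, interaction, sex), each with 15838 genes. The analysis rests on these fitted comparisons of the authors, not on an own fit, because no values per library were analysed here. Depth per library is therefore unknown, and precision comes from the standard error, the log2FC divided by the moderated t. In the tables the authors deposited, the log2 scale holds for log2FC and mean expression, the moderated t is a score, and every p-value stands beside its Benjamini-Hochberg value. Aligner and limma versions and the counter are not given in the sources used here.

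The coefficient for genotype was taken to be the KO effect of males, because Y-linked genes such as *Ddx3y* had a smaller standard error there (0.365) than for females (3.01), and *Xist* a larger one (5.35 against 1.52). The female effect is genotype plus interaction, its squared standard error the difference of theirs, and the mean effect is genotype plus 0.5 times the interaction. Degrees of freedom solved from t and p were 13.8, and 14.6 for sex. The standard error of the sex coefficient relative to that of the mean effect had a median of 1.50 among genes called for that effect and 1.06 among the others, so that table was read as a fit without genotype. Estimated group levels combine both fits and carry no error. The SD between libraries implied for a gene is its standard error in males times the square root of 1.5. The formulas were tested on simulated data against direct fits in limma 3.58.1 (R 4.3.3). Tests used scipy 1.17.1 in Python 3.11.15.

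Positions and exon lengths come from GENCODE M21 (15824 genes matched), promoter sequence from RefSeq. Members and lists were chosen with earlier results of these data known. Named genes are the 8 chains, *Slc4a11*, the 3 genes nearest in pattern to *Col4a3*, and for each list up to 4 with the smallest adjusted p under 0.05 in any of 5 comparisons and up to 2 of highest level. *P3h1*, *Pxdn* and *Col3a1* were named after their values were seen. Alternatives changed the genes entering the adjustment, the adjustment, the degrees of freedom, the fold threshold, the centring and the gene length. The sum of CEC markers without *Slc4a11* was added after seeing the data.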

Additional observations from a re-analysis of the deposited data

Results flagged for a closer look

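The KO effects of 2 genes that were listed here under collagen IV turnover differed between the sexes by the interaction term of limma, adjusted over all 15838 genes. For *Adamts1* the female effect exceeded the male effect by 1.80 ± 0.25 on the log2 scale (adjusted p = 0.0127). For *Plat* the female minus male effect was -1.69 ± 0.23 (adjusted p = 0.0127). Neither call was kept with the Benjamini-Yekutieli adjustment or with the residual degrees of freedom alone, where 0 genes of the table were called for the interaction. The effects in males, of opposite sign, did not pass the threshold. None of the 8 collagen genes met this test.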

How the results depend on the processing

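The direction of each collagen effect held under the alternatives run except that of *Col4a2* in males, which turned from -0.011 to 0.013 when recentred on the median of all genes. The call of *Col4a3* in males (log2FC 0.44) was lost with the Benjamini-Yekutieli adjustment, with the residual degrees of freedom alone and with an added threshold of 1 on the absolute log2FC, each of which left 0 of the 8 genes called in males, and its adjusted p ran from 0.0238 to 0.342. Over all genes, the Benjamini-Yekutieli adjustment called 123 in males, 47 in females, 209 for the mean, 0 for the interaction and 0 for sex. The residual degrees of freedom alone called 140, 32, 324, 0 and 0, and the fold threshold 302 in males, 93 in females and 356 for the mean. With genes of at least 10 CPM, 0 were called for sex. By the longest transcript, levels per kb were 728 for *Col4a1*, 694 for *Col4a3*, 121 for *Col4a6* and 488 for *Col8a1*. No paired analysis was possible because the tables hold no values per library, and for the same reason no library could be left out, so a value that rests on 1 library would not be seen.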
